A study of Mus musculus with 6 samples.

Results

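The TALE homeobox genes described here are Meis1, Meis2, Pknox1, Pknox2, Pbx2, Pbx3, Irx3 and Irx5, 8 of 18193 genes that the arrays measured with a probe set annotated to a single symbol. Their 19 probe sets were all kept, because probe sets of Meis1 disagreed with each other. The genes were chosen by family, and in part for the higher Pknox2 signal after dox in these same arrays, so the differences between cultures below are a description for the members, whose p-values are not given. All 6 arrays came from A2.Snail cells, mouse embryonic stem cells (ESCs) that carry a Snail transgene under doxycycline (dox) control, and all cultures were grown as embryoid bodies in 10% FCS with the Wnt inhibitor Dickkopf (DKK). The DKK + dox cultures received 250 ng/mL dox at day 2, and the DKK cultures received none. RNA was taken 6, 12 and 24 hours later (days 2.25, 2.5 and 3), with 1 array per condition and time and no replicates. No array holds dox without the Snail transgene, so effects of dox and of Snail cannot be told apart here.

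TALE proteins carry a homeodomain lengthened by a loop of additional amino acids between its first helices. MEIS and PKNOX (also called PREP) proteins bind PBX proteins, which brings PBX into the nucleus, and PBX with or without MEIS or PKNOX joins HOX proteins on DNA, so that members of the family act as cofactors of each other and of HOX factors. Meis1, Meis2 and the Pbx genes are known for roles in blood, limb and hindbrain development, while the Iroquois genes Irx3 and Irx5 encode a more distant branch that patterns neural tissue, heart and limb. Snail is a zinc finger repressor that drives epithelial-to-mesenchymal transition and binds E-box sequences.

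Promoters were read for the members in the RefSeq promoter table (build GRCm38.p6, 250 bases before to 50 after each annotated start), which matched 4 of the 8 members. They are shown because Meis1, Meis2 and Irx3 have probe sets that were higher with dox, and Pbx2 is the one among these genes whose window holds the Snail E-box. Capitals mark each match, on either strand, to CAGGTG (the Snail E-box), TGACAG (a MEIS or PREP site), TGATNNAT (a PBX-HOX site) or CCAAT (the CCAAT box, written ATTGG on the other strand). The Meis1 window is chr11:19018920-19019219 on the minus strand, the Meis2 window chr2:116064570-116064869 on the minus strand, the Irx3 window chr8:91801605-91801904 on the minus strand, and the Pbx2 window chr17:34592009-34592308 on the plus strand.
Meis1: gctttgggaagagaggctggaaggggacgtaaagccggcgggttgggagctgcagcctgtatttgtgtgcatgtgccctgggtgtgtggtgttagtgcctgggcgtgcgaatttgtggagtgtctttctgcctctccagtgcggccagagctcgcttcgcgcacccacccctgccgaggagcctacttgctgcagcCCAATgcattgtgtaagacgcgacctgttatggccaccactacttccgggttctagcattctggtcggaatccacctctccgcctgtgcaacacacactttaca
Meis2: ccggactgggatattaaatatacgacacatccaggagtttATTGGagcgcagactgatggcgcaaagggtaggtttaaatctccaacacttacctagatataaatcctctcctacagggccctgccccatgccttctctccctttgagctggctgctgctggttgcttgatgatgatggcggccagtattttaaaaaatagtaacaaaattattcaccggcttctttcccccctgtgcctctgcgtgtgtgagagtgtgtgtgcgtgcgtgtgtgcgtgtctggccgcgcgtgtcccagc
Irx3: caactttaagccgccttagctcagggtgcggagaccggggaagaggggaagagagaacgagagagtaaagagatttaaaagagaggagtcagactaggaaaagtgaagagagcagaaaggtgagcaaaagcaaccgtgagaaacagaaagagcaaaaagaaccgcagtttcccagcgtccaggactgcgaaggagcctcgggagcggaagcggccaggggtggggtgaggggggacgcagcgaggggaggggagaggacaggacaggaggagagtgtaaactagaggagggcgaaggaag
Pbx2: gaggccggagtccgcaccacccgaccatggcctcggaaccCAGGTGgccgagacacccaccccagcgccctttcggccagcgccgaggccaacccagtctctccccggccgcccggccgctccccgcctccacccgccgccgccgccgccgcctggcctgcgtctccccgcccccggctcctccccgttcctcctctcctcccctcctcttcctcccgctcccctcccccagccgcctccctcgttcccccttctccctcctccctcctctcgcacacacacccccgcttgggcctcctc

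The Pbx2 window held 1 CAGGTG, whose first base lies at position -210 from the start. The Meis1 window held 1 CCAAT at position -54, and the Meis2 window 1 at position -210. The Irx3 window matched none of the motifs searched, which says only that these letters are not in this window. Of all 32851 promoter windows of this length, 20.2% held CAGGTG, 19.2% TGACAG, 8.85% TGATNNAT and 37.4% CCAAT. The GC content was 58.3% for Meis1, 51% for Meis2, 56% for Irx3 and 76% for Pbx2. A match is a string of letters and not a bound site.

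Values are dChip intensities on a linear scale, and a probe set was taken as low on an array at or under 37.2, the 40th percentile of all values. Differences are on the scale of log2(intensity + 20.6), which understates changes of dim probe sets, and levels of different probe sets cannot be compared. Median intensity was 53.5 to 63.7 across the arrays, and 37.5% to 41.3% of probe sets were low on each. The 6 hour arrays stood apart from the later ones with dox and without it. Between 6 and 12 hours 1629 of 31597 probe sets moved 2-fold or more in DKK + dox cultures and 1790 in DKK cultures, against 743 in DKK + dox and 290 in DKK cultures between 12 and 24 hours. Snai1, the gene that dox induces, was low on all arrays by its single probe set, at 29.6, 18.8 and 14.5 in DKK + dox cultures and 32.9, 16.6 and 10.9 in DKK cultures. Whether that probe set reads the transgene is not known here, so induction rests on the labels. The 8 pluripotent markers, all measured, summed to 44700, 36592 and 31448 in DKK + dox cultures and 45363, 38295 and 33430 in DKK cultures, and 2 of them were called lower with dox. The called ones are not named here. At 24 hours 4 of the 8 were higher with dox, and the median difference was -0.05. Pou5f1 (Oct4) stood at 6100, 6675 and 5672 in DKK + dox cultures and at 6046, 6764 and 6255 in DKK cultures at 6, 12 and 24 hours. Sox2 was lower with dox at each time, at 5342, 4574 and 4742 against 5991, 5599 and 5558. Zfp42 (Rex1) was close in both, at 4237, 944 and 516 in DKK + dox cultures and at 4141, 927 and 496 in DKK cultures.

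The difference between cultures was fitted in limma in proportion to hours after dox and is given, with its SE, as the value at 24 hours. A probe set was called when its Benjamini-Hochberg adjusted p over all 31597 tested probe sets was under 0.05. The fit called 5.36% of all tested probe sets higher with dox and 4.12% lower. Of the 19 member probe sets, 17 passed the low-signal filter. Of these, 7 lay past that threshold and higher with dox, from the 5 genes Meis1, Meis2, Pknox2, Irx3 and Irx5, and 0 lower. For members the word called only says on which side of the threshold a probe set lay, and it is no test of them, since this contrast was used to pick Pknox2 and was known when the other members were chosen. Meis1 1450992_a_at and Pknox2 1433907_at, both among the 7, exceeded the low-signal limit on 2 arrays each, the later DKK + dox ones. The count of 7 became 0 when the difference was held constant over the 3 times, with 30 probe sets of all genes called higher and 133 lower, and 0 when limma was run without its intensity trend, with 0 of all probe sets called in either direction. The filter lets through a probe set that is high in one culture only, so these counts describe the probe sets that passed and not the family. The median fitted difference of the 17 was 0.71, with a range of -0.40 to 3.43, and the median over all tested probe sets was 0.00.

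**Figure D1:**
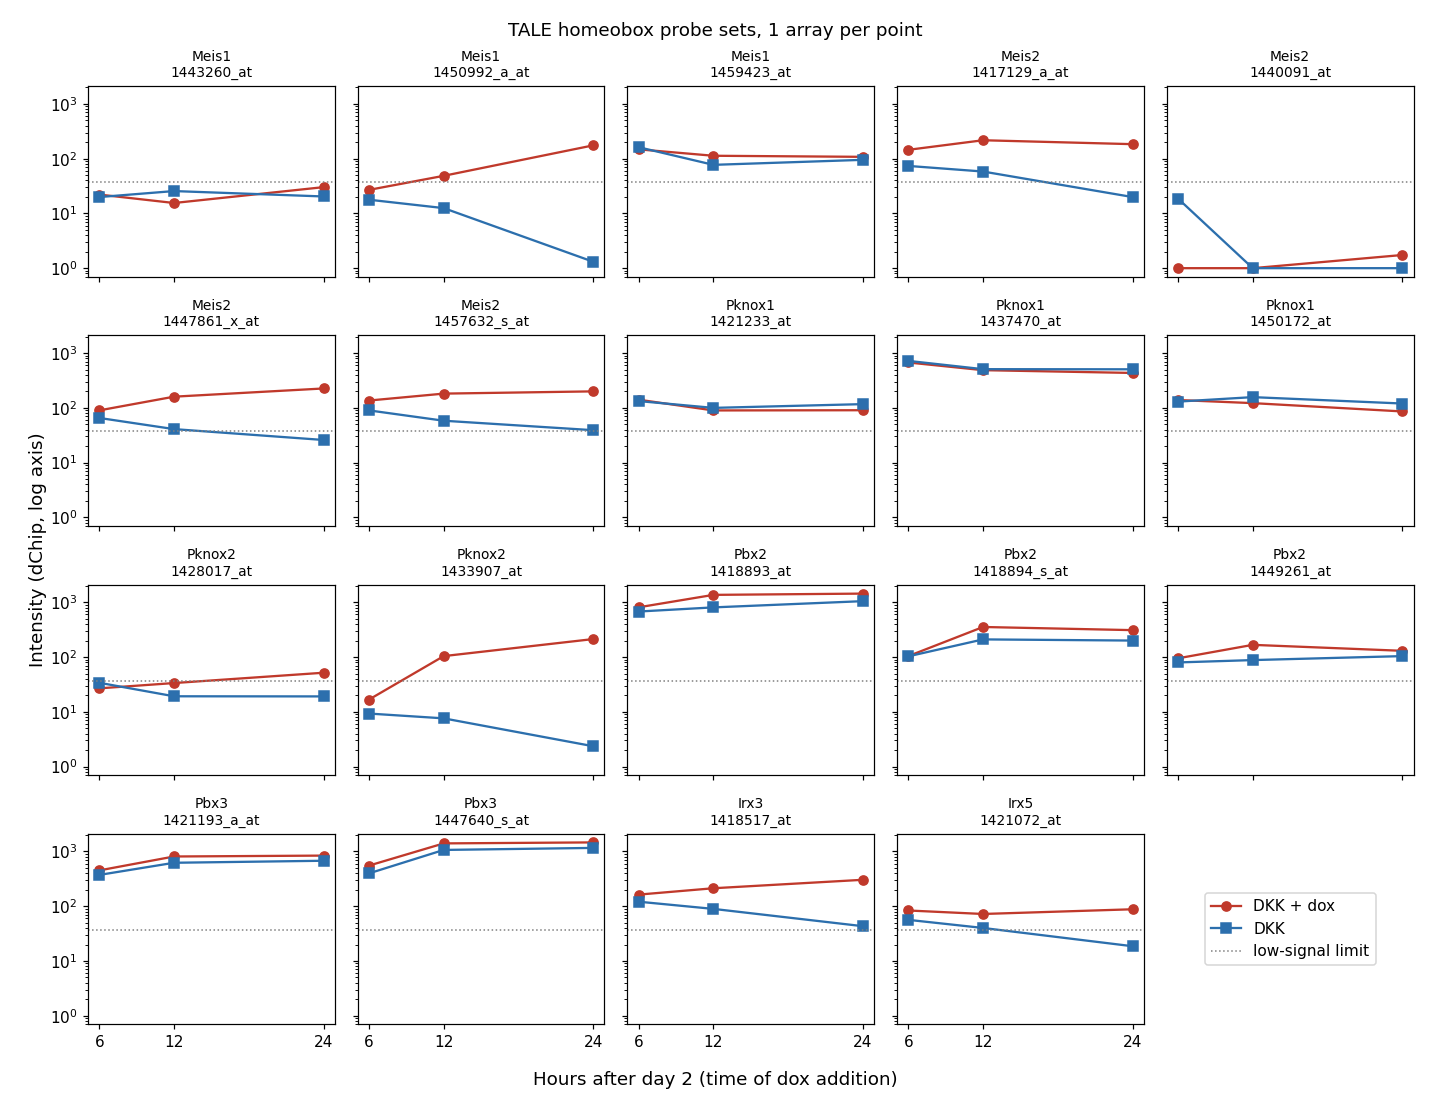
Intensity (log axis) of the 19 probe sets of the TALE homeobox members at 6, 12 and 24 hours after day 2 in DKK + dox (red) and DKK (blue) cultures, 1 array per point, with the low-signal limit of 37.2 dotted. The curves part over time for 1 Meis1 probe set, 3 Meis2 probe sets, Pknox2, Irx3 and Irx5, and run side by side for Pknox1 and Pbx3.

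Pknox2, which encodes the PREP2 partner of PBX proteins, had the largest fitted difference among the members. Its probe set 1433907_at measured 16.7, 104 and 213 in DKK + dox cultures at 6, 12 and 24 hours, against 9.29, 7.59 and 2.35 in DKK cultures. All DKK arrays were low, the DKK + dox array at 6 hours was low too, and every DKK + dox array lay above every DKK array. The differences, DKK + dox minus DKK, were 0.32, 2.14 and 3.35 at the 3 times, and the fitted difference was 3.43 ± 0.33. These are the values for which the gene was picked, and its call is no evidence of a difference.

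The other Pknox2 probe set, 1428017_at, was dim. It measured 26.8, 33.5 and 51.7 in DKK + dox cultures and 33.9, 19.2 and 19.1 in DKK cultures, so that only the DKK + dox array at 24 hours exceeded the low-signal limit. Its differences were -0.20, 0.44 and 0.87, and the fitted difference of 0.79 ± 0.29 was not called. The 2 probe sets thus gave the same direction at 12 and 24 hours and sizes far apart.

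Pknox1, which encodes PREP1, the close relative of PREP2, did not share the pattern. Its probe set 1437470_at measured 674, 488 and 434 in DKK + dox cultures and 721, 509 and 506 in DKK cultures. The signal was lower at 24 than at 6 hours in both cultures, by -0.61 in DKK + dox and -0.50 in DKK. Probe set 1421233_at measured 141, 89.7 and 90.5 in DKK + dox cultures and 133, 99.9 and 117 in DKK cultures, and 1450172_at measured 139, 122 and 86 in DKK + dox cultures and 130, 157 and 120 in DKK cultures. No array of any Pknox1 probe set was low, and the cultures overlapped in each. The fitted differences were -0.20 ± 0.12, -0.27 ± 0.18 and -0.40 ± 0.19, none of them called.

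Meis1, a HOX and PBX cofactor known from blood progenitors and myeloid leukemia, gave 3 different readings. Probe set 1450992_a_at measured 26.9, 48.6 and 175 in DKK + dox cultures at 6, 12 and 24 hours, against 17.8, 12.5 and 1.31 in DKK cultures. The last DKK value is close to 1, the lowest value in the file, and only the DKK + dox arrays at 12 and 24 hours passed the low-signal limit. The differences were 0.30, 1.06 and 3.15, and the fitted difference was 2.87 ± 0.32. From 6 to 24 hours the signal changed by 2.04 in DKK + dox cultures, of which 0.54 came before 12 hours, and by -0.81 in DKK cultures, of which -0.21 came before 12 hours.

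Meis1 probe set 1459423_at showed no such split. It measured 148, 113 and 108 in DKK + dox cultures and 162, 77.1 and 95.2 in DKK cultures, all above the low-signal limit. The cultures overlapped, with differences of -0.12, 0.45 and 0.15 and a fitted difference of 0.26 ± 0.21 that was not called. The last probe set, 1443260_at, was low on all arrays, at 22.1, 15.5 and 30.2 in DKK + dox cultures and 19.9, 25.6 and 20.4 in DKK cultures, and was not tested. A gene value taken from the probe set with the highest mean would have been that of 1459423_at, and Meis1 would then have counted as not called. Which transcripts each probe set reads was not analysed here.

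Meis2, the paralog of Meis1, was higher with dox on each of its 3 tested probe sets, already at 6 hours. Probe set 1417129_a_at measured 145, 217 and 184 in DKK + dox cultures, against 73.7, 58.2 and 19.9 in DKK cultures. The fall without dox made up most of the widening here, since 24 hours stood -1.22 from 6 hours in DKK cultures and 0.30 in DKK + dox cultures. The differences between cultures were 0.81, 1.59 and 2.34, with a fitted difference of 2.54 ± 0.23.

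The 2 further tested Meis2 probe sets were also higher with dox at each time, and there the level with dox was highest at 24 hours. Probe set 1457632_s_at measured 136, 182 and 200 in DKK + dox cultures and 89.9, 58.2 and 39.1 in DKK cultures, above the low-signal limit on all arrays, with a fitted difference of 2.05 ± 0.21. Probe set 1447861_x_at measured 89.9, 160 and 226 in DKK + dox cultures and 65.4, 40.9 and 25.9 in DKK cultures, with a fitted difference of 2.50 ± 0.23. In neither did the cultures overlap. The suffixes s and x mark probe sets whose probes can also match transcripts of other genes, and signal from such transcripts was not tested. The last Meis2 probe set, 1440091_at, was low on all arrays, at 1, 1 and 1.74 in DKK + dox cultures and 18.7, 1 and 1 in DKK cultures, and was not tested.

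**Figure D2:**
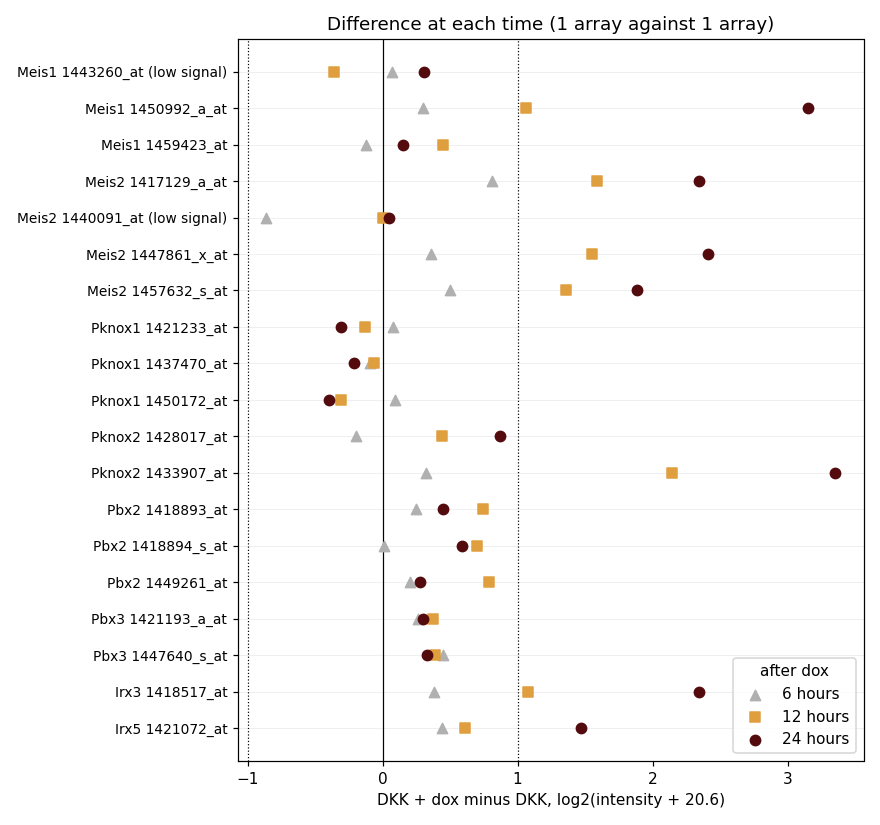
DKK + dox minus DKK difference in log2(intensity + 20.6) of each member probe set at 6, 12 and 24 hours, 1 array against 1 array per point, with the 2 probe sets that were low on all arrays marked. The points spread to the right with time for Pknox2 1433907_at (0.32, 2.14 and 3.35) and Irx3 (0.38, 1.08 and 2.34), while those of Pknox1 stay between -0.40 and 0.09.

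The Iroquois genes Irx3 and Irx5, which lie side by side on chromosome 8 in the order Fto, Irx3, Irx5, Irx6, both separated between the cultures. Irx3, measured by the single probe set 1418517_at, stood at 163, 213 and 304 in DKK + dox cultures, against 121, 89.4 and 43.2 in DKK cultures. All arrays exceeded the low-signal limit, the one at 24 hours with dox standing at 8.16 times it, and the cultures did not overlap. The differences were 0.38, 1.08 and 2.34, with a fitted difference of 2.27 ± 0.18. From 6 to 24 hours the signal changed by 0.82 in DKK + dox and by -1.14 in DKK cultures.

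Irx5, read by 1421072_at, measured 83.6, 72.2 and 88 in DKK + dox cultures and 56.4, 40.1 and 18.6 in DKK cultures. The level with dox was nearly flat, changing by 0.06 between 6 and 24 hours, while the level without dox changed by -0.97 and was low at 24 hours. The differences were 0.44, 0.61 and 1.47, and the fitted difference was 1.44 ± 0.22, the smallest of the called member probe sets. The next gene in the row, Irx6, had a single array above the limit and a fitted difference of -0.61 ± 0.36 (adjusted p = 0.379 from limma).

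Pbx2 and Pbx3, which encode the shared partners of MEIS, PKNOX and HOX proteins, were low on none of the arrays and were not called. Pbx2 1418893_at measured 810, 1366 and 1441 in DKK + dox cultures and 678, 807 and 1049 in DKK cultures. It was higher with dox at each time, with differences of 0.25, 0.74 and 0.45 that were largest at 12 hours, and the cultures overlapped. The fitted difference was 0.67 ± 0.18.

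Pbx2 1418894_s_at measured 104, 354 and 310 in DKK + dox cultures and 103, 210 and 200 in DKK cultures. Pbx2 1449261_at measured 94.8, 167 and 130 in DKK + dox cultures and 79.7, 88 and 104 in DKK cultures. Both shared the shape of 1418893_at, with differences largest at 12 hours (0.70 and 0.79), and had fitted differences of 0.71 ± 0.20 and 0.55 ± 0.25.

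Pbx3 was higher at 12 and 24 than at 6 hours in both cultures. Its probe set 1447640_s_at measured 552, 1405 and 1465 in DKK + dox cultures and 398, 1067 and 1162 in DKK cultures, and 1421193_a_at measured 451, 810 and 841 in DKK + dox cultures and 373, 622 and 677 in DKK cultures. The step came between 6 and 12 hours, when 1447640_s_at changed by 1.32 in DKK + dox and 1.38 in DKK cultures, the interval in which the arrays of both cultures stood apart from the later ones. The differences between cultures were 0.45, 0.39 and 0.33 for 1447640_s_at and 0.26, 0.37 and 0.30 for 1421193_a_at, with no widening over the 3 times. The fitted differences were 0.49 ± 0.16 and 0.42 ± 0.14.

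The number of member probe sets that differed 2-fold or more between single pairs of arrays was larger at 12 and 24 hours than at 6 hours. At 6 hours 0 of the 17 tested probe sets were 2-fold or more higher with dox (0.228% of all tested), at 12 hours 6 were (1.21% of all tested), and at 24 hours 7 were (2.71% of all tested). The 7 at 24 hours are the 7 called probe sets, and Irx5 is the one that had not reached 2-fold at 12 hours. At 24 hours 0 members were 2-fold or more lower (1.85% of all tested). All 3 differences were above 0 for 12 of the 17 probe sets (18.4% of all tested) and below 0 for 1, Pknox1 1437470_at. Every DKK + dox array lay above every DKK array in 7 of the 17 (4.32% of all tested), again the called ones. The members were picked with this contrast known, so nothing is read from these shares.

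The fit called differences that grow with hours, so a rise with dox or a fall without it was favoured among the called probe sets. At 24 hours all 7 stood higher than at 6 hours in DKK + dox cultures, Irx5 by only 0.06, and all 7 stood lower in DKK cultures. With the dim Pknox2 1428017_at, which changed by 0.61 in DKK + dox and -0.46 in DKK cultures, 8 of the 17 probe sets had that pattern (14.8% of all tested). For both Pknox2 probe sets and Meis1 1450992_a_at every DKK value was low, so their falls without dox lie within low signal. At 2-fold or more, 5 of the 17 were higher at 24 than at 6 hours in DKK + dox cultures (5.03% of all tested) and 2 were lower in DKK cultures (3.94% of all tested). The 2 were Meis2 1417129_a_at and Irx3. For Irx3, Irx5, Meis2 1417129_a_at and Meis2 1457632_s_at the loss without dox was larger than the gain with dox, and for Meis2 1447861_x_at the gain was larger (1.16 with dox and -0.89 without). For Pknox2 1433907_at and Meis1 1450992_a_at all DKK values were low, which limits how large a loss could be measured, so gain and loss were not compared. RNA came from whole cultures, so fewer cells of a type and less RNA per cell cannot be told apart.

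**Figure D3:**
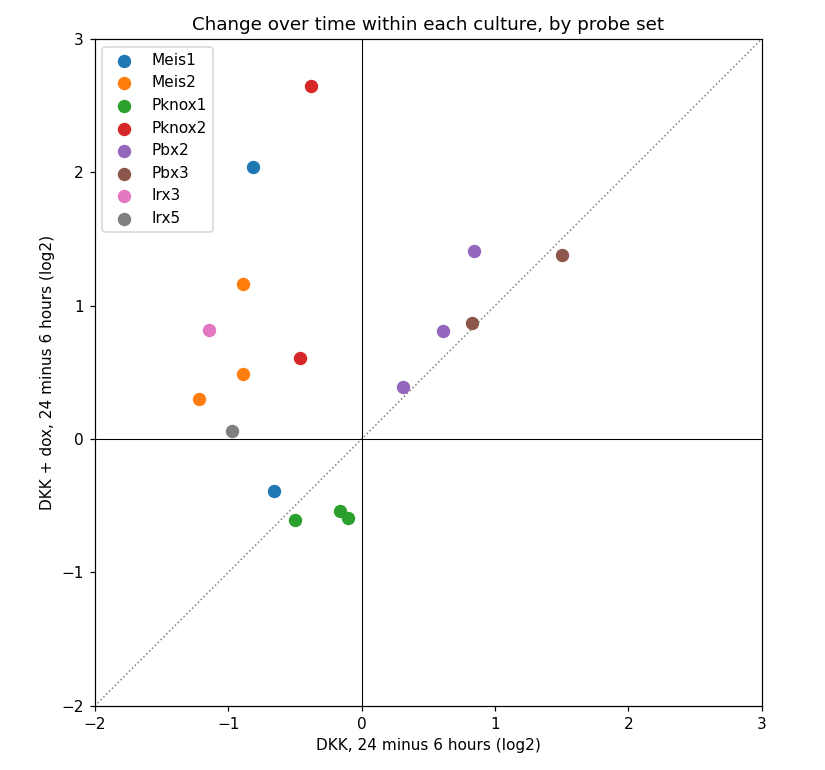
Change from 6 to 24 hours in log2(intensity + 20.6) in DKK + dox cultures (vertical axis) and in DKK cultures (horizontal axis) for the 17 tested member probe sets, coloured by gene, each change the difference of 2 arrays. The called probe sets lie in the upper left, led by Pknox2 1433907_at (2.65 with dox and -0.38 without), and Pbx3 lies near the diagonal in the upper right.

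The other TALE genes analysed did not show a call. The 9 that were analysed had 11 probe sets with a single symbol, and 10 of these passed the filter. The fit called 0 of them, against 5.36% higher and 4.12% lower of all tested probe sets. Among 10 probe sets, 0 calls is not far from those shares. An unadjusted p under 0.05 was reached by 0 of them and by 7490 of all 31597 tested, and their lowest adjusted p was 0.244 (limma). Their median fitted difference was 0.03, with a range of -0.61 to 0.42. The highest was Meis3, the third Meis gene, at 46.8, 96.9 and 121 in DKK + dox cultures and 43.7, 78.9 and 85.1 in DKK cultures. The repressors Tgif1 and Tgif2 were above the limit on all arrays and had fitted differences of -0.13 to 0.05. A probe set that missed the threshold is not shown to be equal in both cultures.

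Hox genes, whose proteins are DNA-binding partners of the PBX and MEIS proteins, were mostly dim. Of 39 listed, 33 had a probe set, and 24 of their 48 probe sets passed the filter. The fit called 1 higher (5.36% of all tested) and 0 lower (4.12% of all tested). It put 2 at an unadjusted p under 0.05 (limma), against 7490 of all 31597 tested. Their median fitted difference was 0.14, with a range of -0.73 to 1.37. The call was Hoxc6 1427454_at, at 34.6, 46.1 and 25.9 in DKK + dox cultures and 18.1, 10.1 and 1 in DKK cultures (fitted 1.37 ± 0.33, adjusted p = 0.0418 from limma). It exceeded the low-signal limit on 1 array and was not called under 8 of the alternative settings, some of which left it out of the fit. The other 2 Hoxc6 probe sets, above the limit on all arrays, both had fitted differences of 0.03.

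**Figure D4:**
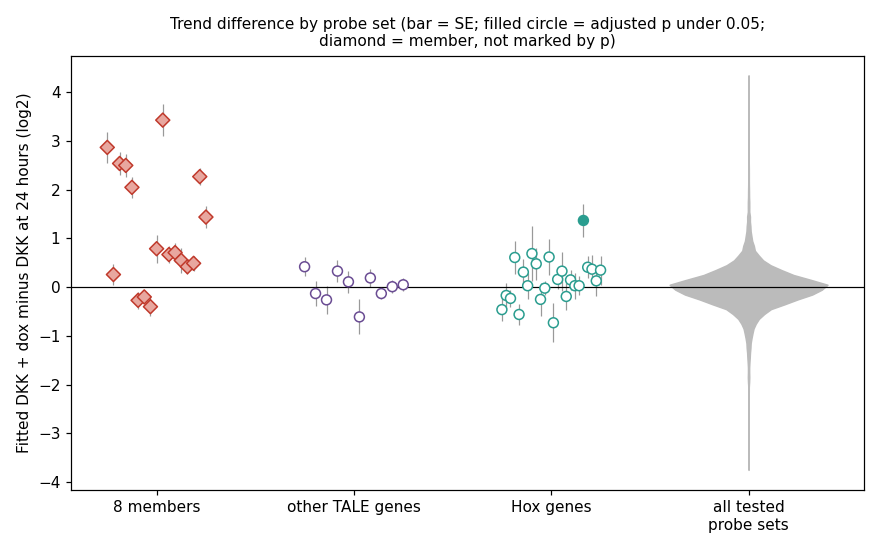
Fitted DKK + dox minus DKK difference at 24 hours (log2) with its SE for the tested probe sets of the 8 members, the other TALE genes and the Hox genes, drawn as diamonds for the members, whose calls are not tests, and as circles for the others, filled where the adjusted p is under 0.05, beside the distribution over all 31597 tested probe sets. The 7 called member probe sets lie between 1.44 and 3.43, and the other TALE genes lie between -0.61 and 0.42.

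The genes whose 6 values most resembled those of the members were named by Pearson correlation over the 6 arrays, among 4464 genes whose log2 values spanned at least 1. All points share arrays and normalization, and the coefficients are a description. Pknox2 1433907_at was closest to Elk3 (r = 0.999), Pth1r (0.997), Sox18 (0.996), Cd248 (0.995) and Flnc (0.995), and 140 genes exceeded 0.95. Elk3, an ETS repressor, stood at 252, 732 and 1324 in DKK + dox cultures and at 178, 186 and 142 in DKK cultures. Sox18, a transcription factor of endothelial cells, stood at 60.4, 222 and 305 in DKK + dox cultures and at 47.5, 46.2 and 34.8 in DKK cultures.

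Irx3 was closest to Dixdc1 (r = 0.998), Serping1 (0.988), Pros1 (0.987), Rbms1 (0.986) and Ccnd2 (0.985), with 37 genes above 0.95. Ccnd2, a D-type cyclin, stood at 241, 446 and 588 in DKK + dox cultures and at 239, 157 and 81.7 in DKK cultures, with the same gain on one side and loss on the other. Meis1 1450992_a_at was closest to Creb3l2 (r = 0.998), Phlda1 (0.998), Tcim (0.994), A2m (0.993) and Glipr2 (0.993), with 88 genes above 0.95. In Phlda1, as in this Meis1 probe set, most of the gain came after 12 hours, with 177, 275 and 666 in DKK + dox cultures and 163, 142 and 96.6 in DKK cultures.

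Some lists of cell type markers held probe sets called higher with dox, and others did not. The summed intensity of the mesoderm markers, 5 of 6 measured, was 503, 643 and 1109 in DKK + dox cultures and 507, 321 and 340 in DKK cultures, and 2 of them were called higher, with 3 of 5 above 0 at 24 hours and a median difference of 0.20. The marker without a reading was T (Brachyury), which had no probe set under that symbol. Pdgfra stood at 123, 66.8 and 148 in DKK + dox cultures and 96, 23.8 and 18.9 in DKK cultures. Kdr (Flk1), the receptor that marks early mesoderm, stood at 60.5, 371 and 771 in DKK + dox cultures and 77.5, 99.3 and 89.4 in DKK cultures, while Foxf1 stood at 182, 119 and 84 in DKK + dox cultures and 194, 128 and 130 in DKK cultures. The 10 parietal endoderm markers summed to 4455, 4218 and 5898 in DKK + dox cultures and 4669, 3782 and 3200 in DKK cultures, with 4 called higher and 10 of 10 above 0 at 24 hours. The differences were uneven. At 24 hours the bright matrix genes Sparc, Lamb1 and Col4a1 stood at 2132, 1545 and 1184 with dox and 1259, 1276 and 383 without. Sox7 and Sox17 stood at 356 and 393 with dox and 25.1 and 79.9 without. Gata6 was close, at 66.8 and 63.4, and Thbd was low in both, at 21.8 and 10.2.

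The fibroblast markers, which feeder cells would bring, summed to 696, 896 and 1132 in DKK + dox cultures and 797, 630 and 763 in DKK cultures, with 1 of 5 tested called higher and Lum, Postn and Prrx1 low on all arrays. Fbln1 carried the rise of this sum from 6 to 24 hours, at 330, 458 and 795 in DKK + dox cultures and 281, 309 and 401 in DKK cultures. The median difference of the 8 fibroblast markers at 24 hours was 0.06, with 5 of them above 0. Visceral endoderm markers summed to 1137, 518 and 634 in DKK + dox cultures and 1268, 492 and 507 in DKK cultures, with 0 of 6 tested called and Afp and Apob low throughout. Neural markers, 5 of 6 measured, summed to 395, 537 and 471 in DKK + dox cultures and 536, 711 and 590 in DKK cultures, with 0 called. The part of any of these cells in the Meis, Pknox2 and Irx differences was not tested.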

How the data were processed

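Gene expression was measured on 6 Affymetrix mouse arrays of A2.Snail ESCs. The deposited values are linear intensities, which the authors normalized and modeled with dChip. For dChip, neither version nor model form is given in the sources used here. The file has 45037 probe sets and a lowest value of 1, held by 2.51% to 3% of probe sets per array. The platform annotation gave 1 symbol for 34945 probe sets, several for 932 and none for 9160, and all 8 members matched RefSeq (GRCm38.p6) by Entrez ID.

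Values were taken as log2(intensity + 20.6), the offset being the 25th percentile of all values. The 31597 probe sets with a highest value above 37.2 were fitted in limma 3.58.1 (R 4.3.3) with lmFit and eBayes with an intensity trend, using 4 coefficients: 3 time points as a block and the difference in proportion to hours after dox. The fit had 2 residual and 5.87 prior degrees of freedom. It was also run on simulated arrays with levels and spreads taken from these data, and the outcome is not given here. Precision is limited by the small number of arrays, and the labels name no replicate cultures. Differences at one time are of 1 array against 1 array, counted at 2-fold.

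The text names every member probe set, called probe sets of the other TALE and Hox genes (for Hox, the 5 largest), and for Pknox2, Irx3 and Meis1 the 5 genes with the most similar values. Marker genes, Meis3, Irx6, Tgif1 and Tgif2 were singled out after their values were seen. The members, lists, tests and alternatives were chosen with earlier results of these data known. Alternatives were tried in offset, filter, normalization, probe set, model and time points. Plots were made in Python 3.11.15 (matplotlib 3.10.9).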

Additional observations from a re-analysis of the deposited data

How the results depend on the processing

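The count of 7 member probe sets called higher was 5 to 9 under 11 of 13 alternatives. It was 0 with the difference held constant over the 3 times, where the lowest adjusted p over all probe sets was 0.0365 (limma, 5259 at an unadjusted p under 0.05), and 0 without the intensity trend, where 0 probe sets of any gene were called higher and 0 lower (lowest adjusted p 0.0555, 6646 at an unadjusted p under 0.05). Over all tested probe sets, 198 were called higher and 115 lower with hours as a linear covariate, 30 higher and 133 lower with a constant difference, and 331 higher and 772 lower without the 24 hour pair. The 1 Hox call became 0 with the 60th percentile filter, 1 probe set per gene, linear hours, a constant difference, no intensity trend, or without the 6, 12 or 24 hour pair. The 60th percentile filter (limit 93.6) and the choice of 1 probe set per gene removed Hoxc6 1427454_at before the fit, so it could not be called there. The causes of the other changes were not tested.

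Without the 24 hour pair, Meis1 1450992_a_at (fitted 1.94) and Irx5 (1.33) were not called and Pbx2 1418893_at (1.39, against 0.67 in all arrays) was, for a count of 6. Pbx2 1418893_at was also called without the 12 hour pair (0.48, count 8), with the 60th percentile filter (count 8), with median centring (count 9) and with 1 probe set per gene, and Pbx2 1418894_s_at with the filter and the centring. Irx5, whose highest value was 88, was left out by the 60th percentile filter and is not part of that count. With 1 probe set per gene the count was 5 of 8 genes, with Pbx2 called and Meis1, read by 1459423_at, not called. With an offset of 1 in place of 20.6 the fitted difference was 6.09 for Pknox2 1433907_at and 5.58 for Meis1 1450992_a_at, so the sizes for these dim probe sets depend on the offset. With a constant difference they were 1.94 and 1.51. Of the fitted member differences under all alternatives, 172 stayed within their error, 38 moved and 0 changed sign. The filters, the choice of 1 probe set per gene, linear hours and the intensity trend leave a fitted difference unchanged by construction. The 172 include those settings and are therefore no measure of stability. All alternatives also refit the same arrays. At a threshold of 1.5-fold, 9 member probe sets were higher at 24 hours. The median difference of all tested probe sets lay between -0.04 and 0.04 at each time under every scaling. The fit compared cultures within each time, and the labels give no replicate numbers for a further block.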
